A study of Mus musculus with 9 samples.

Results

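Among the 19094 genes listed in at least 1 sample, 7 genes of the plasminogen activator system and of the serpin family were examined during 3T3-L1 adipocyte differentiation. They were chosen by name and comprise the activators Plau and Plat, the receptor Plaur, and the serpins Serpine2, Serpinf1, Serpina3n and Serpina3g. All 7 were listed in every sample and passed the filter on low counts, which left 13154 genes for the test. RNA was sequenced from 3T3-L1 cells, an established mouse line of fibroblast-like preadipocytes, with 3 replicates on each of 3 days. Preadipocytes (day 0) had received no induction medium. The 4-day-differentiated adipocytes (day 4) had been given dexamethasone, the phosphodiesterase inhibitor IBMX and insulin for 2 days, then insulin alone for 2 days, and the 8-day-differentiated adipocytes (day 8) stayed in the insulin medium for 4 further days. All groups came from this single line, the labels name no engineered allele, and no day-matched culture without induction was analysed here, so the medium, the time in culture and the differentiation cannot be told apart. Cells of a stage were pooled and the samples were mixtures of RNA, so p-values measure the spread between these samples, which may be technical. The labels describe the cells as adipocytes, and all 10 adipocyte markers examined, among them Adipoq and Fabp4, were called higher at day 4 than at day 0. The extraction text of the labels speaks of DRG, which are not part of this design, and the 10 markers of sensory neurons and Schwann cells summed to 0.877 FPKM at day 0, 1.32 at day 4 and 1.77 at day 8. Snap25 made up most of the later sums (0.0267, 1.117 and 1.097 FPKM on days 0, 4 and 8) and was called higher in the early phase, whereas Tubb3 and Prph, too low to be tested, had 0.307 and 0.367 FPKM at day 0 and less on both later days. Calca, also untested, had 0 expected counts in all samples of days 0 and 4 and 3, 6 and 6 at day 8. Total expected counts lay between 18216114 and 20452144 per sample, at which the floor of 3 counts equals 0.147 to 0.165 CPM (counts scaled to a common library size).

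Plasminogen is a circulating zymogen that is cut to the broad protease plasmin by urokinase (Plau) or by tissue plasminogen activator (Plat). Urokinase acts mainly at the cell surface, where it is held by its lipid-anchored receptor uPAR (Plaur), while tissue plasminogen activator is best known for its action on fibrin. Most serpins inhibit serine proteases by a suicide mechanism in which the protease cuts the reactive loop of the serpin and stays bound to it. Serpine2, also called protease nexin-1, inhibits thrombin, urokinase, tissue plasminogen activator and plasmin. Serpinf1 encodes pigment epithelium-derived factor, a secreted serpin without inhibitory action that is abundant in fat tissue, and Serpina3n and Serpina3g belong to a mouse cluster of duplicated genes related to antichymotrypsin. Adipose cells remodel a fibrous matrix while they fill with lipid, and plasmin is one of the proteases known to act on that matrix.

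The members differed widely in level. FPKM, which scales the fragments of a gene to its transcript length and to the depth of the sample, was used for every comparison of levels between genes. At day 0 the order was Serpinf1, Serpine2, Plat, Serpina3g, Plaur, Plau and Serpina3n, from 748 down to 1.46 FPKM, and each gene's lowest sample lay above the highest sample of the next gene. At day 4 Serpinf1, Serpine2 and Plat still led, but Plat (24.5 ± 2.26 FPKM, SD, n = 3) and Serpina3n (22.8 ± 2.10 FPKM) overlapped, followed by Plaur, Serpina3g and Plau. At day 8 the order was Serpinf1, Serpine2, Plat, Serpina3n, Plaur, and then Plau and Serpina3g, whose samples overlapped. Serpina3n thus moved from rank 7 at day 0 to rank 4 at day 8, and Serpina3g from rank 4 to rank 7. These ranks are descriptions of the measured levels and were not tested.

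**Figure D1:**
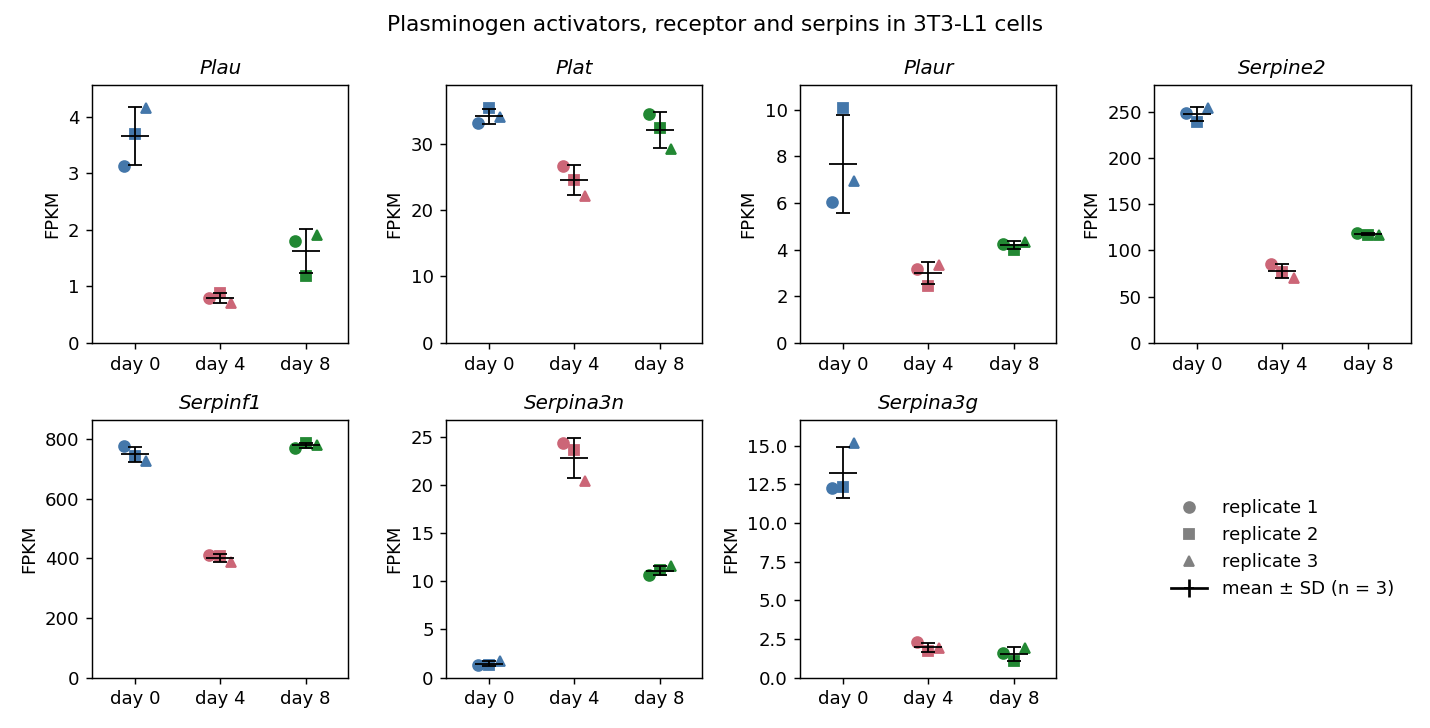
FPKM (vertical axis, linear, from 0 and separate for each gene) of the 7 genes in the 3 samples of day 0, day 4 and day 8; symbols are replicates and black bars the mean ± SD. Plau, Plat, Plaur, Serpine2 and Serpinf1 have their lowest samples at day 4, Serpina3n has its highest there, and Serpina3g is high at day 0 alone.

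A gene was called when its adjusted p (edgeR's quasi-likelihood test, Benjamini-Hochberg over all tested genes) was under 0.05 and its fold change above 2. In the early phase (day 4 against day 0), 1 of the 7 genes was called higher and 4 lower, beside 9.77% of all tested genes called higher and 7.98% called lower. In the late phase (day 8 against day 4), 2 were called higher and 0 lower, against 4.24% and 2.81% of all tested genes. Without the fold threshold 5 members were higher and 1 was lower in the late phase, beside 2964 higher and 2989 lower of all 13154 tested genes. Over the whole process (day 8 against day 0), 1 was called higher and 2 lower, against 10.3% and 7.70%. The median log2 fold change of the 7 genes came to -1.29 in the early phase, 0.54 in the late phase and -0.75 over the whole process, and the medians of all tested genes were 0.02, -0.01 and -0.02. The early and the late comparison share the day 4 samples, so opposite signs in them are not independent of each other. These are bulk samples, in which fewer cells of a type and less RNA per cell cannot be told apart.

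Plau, the urokinase gene, fell in the early phase and partly returned in the late phase. Its level was 3.13, 3.70 and 4.15 FPKM in the 3 preadipocyte samples, 0.80, 0.88 and 0.71 FPKM at day 4, and 1.80, 1.18 and 1.91 FPKM at day 8. No sample of one day overlapped with another day, and day 8 lay between the other two days. The early change was a 4.36-fold decrease (log2 fold change -2.12 ± 0.19, SE; adjusted p = 3.8e-08, edgeR). The late log2 fold change was 1.07 ± 0.21 (adjusted p = 0.00052) and that over the whole process -1.06 ± 0.17 (adjusted p = 3e-05). Both of these lie close to the fold threshold and rest on few reads, since Plau had 33 to 42 expected counts per sample at day 4 and 56 to 89 at day 8. The late call was lost without day 4 replicate 3 (0.99) or day 8 replicate 3 (0.96) and with limma on log2(FPKM + 1) (0.54) or log2(FPKM + 0.1) (0.92). The call over the whole process was lost without day 0 replicate 3 (-0.95) or day 8 replicate 2 (-0.87) and with limma on log2(FPKM + 1) (-0.83), a scale that understates changes of low genes.

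Plat, the gene of tissue plasminogen activator, was the more abundant activator on every day and was called in no comparison. It stood at 33.1, 35.3 and 34.0 FPKM at day 0, at 26.7, 24.6 and 22.2 FPKM at day 4, and at 34.5, 32.3 and 29.2 FPKM at day 8. The day 4 samples were below those of both other days, and days 0 and 8 overlapped. Its log2 fold change reached -0.41 ± 0.07 in the early phase (adjusted p = 4.5e-05) and 0.43 ± 0.07 in the late phase (adjusted p = 7e-05), both under the fold threshold. Over the whole process it was 0.02 ± 0.07 (adjusted p = 0.79), a difference whose sign turned under other scalings.

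The relative levels of the 2 activators differed between the days. The Plau level was 0.0946, 0.105 and 0.122 of the Plat level in the preadipocyte samples, 0.0300, 0.0358 and 0.0320 at day 4, and 0.0521, 0.0365 and 0.0654 at day 8. The day 0 ratios lay above all others, while the day 8 ratios began just above the highest day 4 ratio. In FPKM, Plat therefore made up most of the activator transcript in all 9 samples.

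Plaur, which encodes the urokinase receptor, fell in the early phase. The preadipocyte samples had 6.05, 10.1 and 6.93 FPKM, the day 4 samples 3.15, 2.46 and 3.36 FPKM, and the day 8 samples 4.25, 4.0 and 4.33 FPKM. Replicate 2 stood above the other preadipocyte samples, and the samples of the 3 days did not overlap. The early log2 fold change was -1.29 ± 0.17 (adjusted p = 4.8e-06, edgeR). The late value of 0.54 ± 0.18 (adjusted p = 0.025) and that over the whole process, -0.75 ± 0.16 (adjusted p = 0.0006), stayed under the fold threshold.

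Serpine2, the inhibitor of urokinase, tissue plasminogen activator and thrombin, was the second most abundant of the 7 genes on every day and fell 3.05-fold in the early phase. It was measured at 249, 239 and 253 FPKM at day 0, at 85.3, 76.4 and 70.1 FPKM at day 4, and at 119, 117 and 117 FPKM at day 8. The 3 days were fully separated, and the day 8 samples remained below all preadipocyte samples. The early log2 fold change amounted to -1.61 ± 0.06 (adjusted p = 1.2e-12, edgeR) and the late one to 0.65 ± 0.06 (adjusted p = 2.7e-07). Over the whole process it was -0.96 ± 0.06 (adjusted p = 5.3e-10), just short of the fold threshold, and it passed that threshold when library size alone was used for scaling (-1.07).

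The summed level of the 2 activators stood higher relative to Serpine2 after induction than before it. Plat made up most of that sum. Plau alone fell further than Serpine2 in the early phase (log2 fold changes of -2.12 and -1.61), a difference that was not tested. The summed FPKM of Plau and Plat was 0.146, 0.163 and 0.150 of the Serpine2 level at day 0, 0.322, 0.333 and 0.327 at day 4, and 0.305, 0.287 and 0.266 at day 8. The 3 day groups did not overlap, with the lowest ratios in the preadipocytes and the highest at day 4. These are ratios of transcript levels, and neither protein nor protease activity was measured in these samples.

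**Figure D2:**
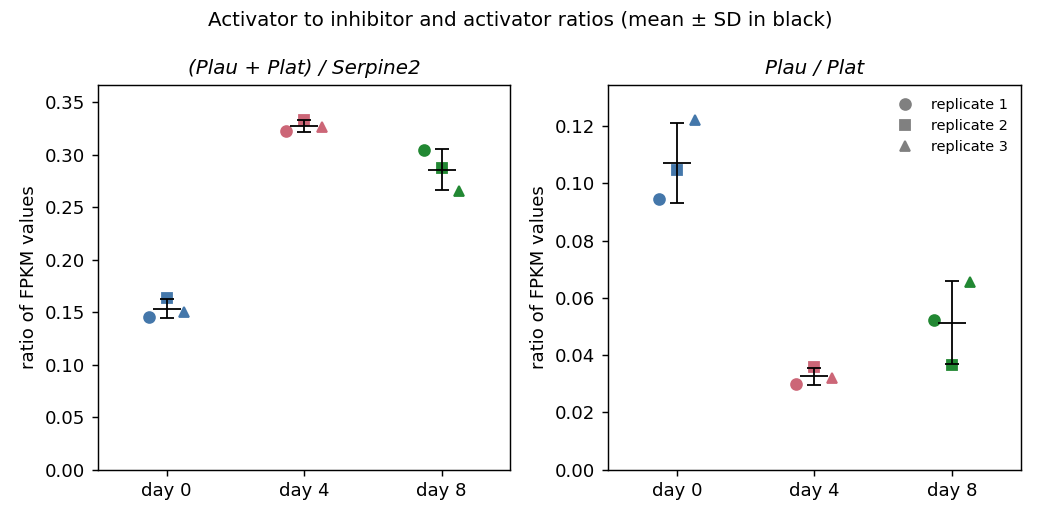
Ratios of FPKM values per sample (linear axes from 0) for Plau and Plat together over Serpine2 (left) and for Plau over Plat (right); symbols are replicates, black bars the mean ± SD of 3 samples. The left ratio is lowest at day 0 (0.153 on average) and highest at day 4 (0.327), whereas the right ratio is highest at day 0.

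Further inhibitors of the plasminogen system were followed by a list of 4 genes. Serpinb2, plasminogen activator inhibitor 2, fell in the early phase, from 17, 22 and 23 expected counts to 2, 1 and 2 (adjusted p = 1.2e-05), and its counts at both later days were under the floor of 3. Serpinf2, the gene of alpha 2-antiplasmin, had means of at most 0.06 FPKM, Cpb2 had 0.01 FPKM on each day, and A2m was listed in none of the samples.

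Serpinf1 was the most abundant of the 7 genes and was lowest at day 4. Its level was 776, 744 and 725 FPKM at day 0, 411, 406 and 387 FPKM at day 4, and 771, 786 and 780 FPKM at day 8. The day 4 samples were far below the rest, and the samples of days 0 and 8 overlapped. The early log2 fold change of -0.83 ± 0.05 (adjusted p = 1.7e-10, edgeR) stayed under the fold threshold, and the late log2 fold change of 1.00 ± 0.05 (adjusted p = 1e-10) was just past it. The late call was lost without day 4 replicate 3 (0.97), without day 8 replicate 2 (1.00), with library size alone (0.96), with limma on FPKM (0.96), with edgeR's exact test (1.00) and with separate models (1.00), and over all settings it ranged from 0.96 to 1.04. Over the whole process the value was 0.17 ± 0.05 (adjusted p = 0.0041). Pnpla2, which encodes the triglyceride lipase that pigment epithelium-derived factor is known to bind, rose from 18.7 to 506 FPKM in the early phase (log2 fold change 4.82 ± 0.08, adjusted p = 1.1e-16), while the other 2 genes on the list of its receptors, Rpsa and Lrp6, were called in no comparison.

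Serpinf1 also carried much of the summed serpin transcript. All listed serpin genes together reached 1822 ± 38.3, 1185 ± 28.8 and 1827 ± 12.3 FPKM on days 0, 4 and 8, and Serpinf1 held 41.1%, 33.9% and 42.7% of these sums. Serpinh1, the collagen chaperone Hsp47, held 32.6%, 42.3% and 42.0%. The share of Serpine2 was 13.6% in preadipocytes, 6.51% at day 4 and 6.44% at day 8. Serpinf1 and Serpinh1 together therefore made up most of the serpin transcript on every day, and the share of Serpine2 was lower at both later days than in any preadipocyte sample.

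**Figure D3:**
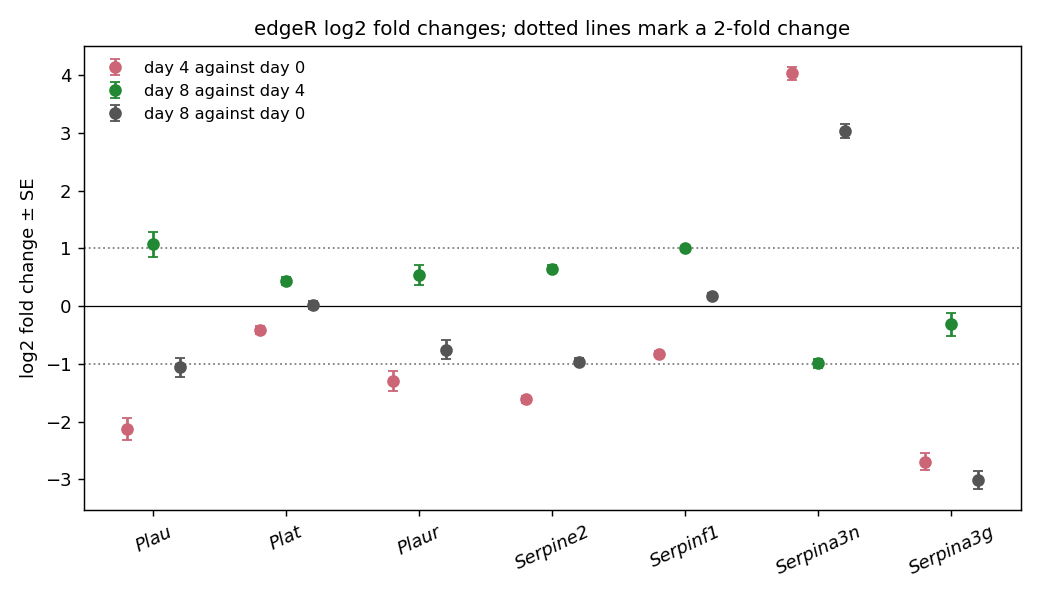
Log2 fold change ± SE (vertical axis) of the 7 genes in the early phase, the late phase and the whole process, from the edgeR model on all 9 samples; dotted lines mark a fold change of 2. Serpina3n (4.03) and Serpina3g (-2.69) lie farthest from 0 in the early phase, and Serpinf1 in the late phase lies on the upper dotted line.

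Serpina3n and Serpina3g, members of one gene cluster, changed in opposite directions. Serpina3n, an inhibitor of granzyme B and of neutrophil proteases and a marker of the acute phase, rose 16.3-fold in the early phase. It was at 1.31, 1.29 and 1.77 FPKM in preadipocytes, at 24.3, 23.6 and 20.4 FPKM at day 4, and at 10.6, 11.1 and 11.6 FPKM at day 8. The 3 days did not overlap, with day 4 highest and day 8 still far above day 0. The early log2 fold change amounted to 4.03 ± 0.11 (adjusted p = 3e-14, edgeR) and that over the whole process to 3.04 ± 0.12 (adjusted p = 1.8e-12), an 8.20-fold increase. The late value was -0.99 ± 0.08 (adjusted p = 7.9e-08), just short of the fold threshold, and the gene was called lower without day 4 replicate 3 (-1.07), without day 8 replicate 3 (-1.0) or with library size alone (-1.04).

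Serpina3g, an intracellular serpin known to inhibit lysosomal cathepsins, fell 6.47-fold in the early phase. Its level was 12.3, 12.3 and 15.2 FPKM at day 0, 2.28, 1.70 and 1.90 FPKM at day 4, and 1.59, 1.05 and 1.94 FPKM at day 8. All preadipocyte samples lay above the rest, and days 4 and 8 overlapped. Its early log2 fold change came to -2.69 ± 0.15 (adjusted p = 1.5e-10, edgeR) and that over the whole process to -3.01 ± 0.16 (adjusted p = 6.5e-11), and the late value was -0.31 ± 0.20 (adjusted p = 0.22). The Serpina3n level was accordingly 0.109 ± 0.00645 times that of Serpina3g in preadipocytes, 11.8 ± 1.84 times at day 4 and 7.75 ± 2.5 times at day 8.

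Sequence upstream of these 2 genes was examined because they belong to one gene cluster and changed in opposite directions. RefSeq windows (GRCm38.p6) of 250 bases before the start of the gene matched 5 of the 7 members, namely Plaur, Serpine2, Serpinf1, Serpina3g and Serpina3n. The best local alignment between the windows of the last 2 covered 31 bases, of which 27 (87.1%) were identical, and both stretches are printed from 5′ to 3′ on the plus strand with 9 bases in capitals that hold, or align to, the motif TTCNNNGAA known for STAT factors. The Serpina3g stretch lies at chr12:104236113-104236143 and its capitals begin 33 bases before the annotated start, and the Serpina3n stretch lies at chr12:104406584-104406614 with its capitals 123 bases before the start.
Serpina3g: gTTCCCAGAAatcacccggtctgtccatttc
Serpina3n: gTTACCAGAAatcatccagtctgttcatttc
Counted from 1 at the first capital, the substitution from Serpina3g to Serpina3n is C3A, so the motif letters are complete in Serpina3g alone. The motif reads the same on both strands and occurs in 7.02% of all 32851 RefSeq windows of this length. A search on both strands for TGANTCA, known for AP-1, and TTGCNNAA, known for C/EBP factors, found each of them once in the window of Plaur, 69 and 59 bases before its start, and in none of the other 4 windows. These letters occur in 6.75% and 9.56% of all windows. A match is a description of the sequence, and binding was not measured.

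The reads of the Serpina3 genes are less certain than those of the other members. Expected counts of Serpina3g and Serpina3n were fractional in 9 of 9 samples, whereas those of the other 5 members were whole numbers in all samples. Of the 50-base stretches in reference transcripts, 15.5% of those of Serpina3g and 6.90% of those of Serpina3n also occur in transcripts of other genes, for Serpina3g mostly in Serpina3h (8.89%), against 0% for Plau, Plat, Plaur and Serpinf1 and 0.0728% for Serpine2. Reads could therefore have been shared among neighbours, and how much this moved the values was not tested. With all 10 listed Serpina3 genes summed, the log2 fold change came to 1.00 ± 0.08 in the early phase, -0.89 ± 0.08 in the late phase and 0.10 ± 0.08 over the whole process, none of them called (adjusted p = 7.6e-09, 1.1e-07 and 0.25). The sum adds paralogs with opposite changes.

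Of the 8 other listed Serpina3 genes, 5 could be tested. Serpina3c and Serpina3m rose like Serpina3n in the early phase, from 0.623 to 7.50 FPKM (log2 fold change 3.64 ± 0.14, adjusted p = 1.4e-12) and from 0.117 to 3.15 FPKM (4.71 ± 0.26, adjusted p = 1.3e-10), and Serpina3m fell in the late phase to 0.787 FPKM (-1.96 ± 0.19, adjusted p = 3.2e-07). Serpina3i fell in the early phase, from 0.520 to 0.137 FPKM (-1.84 ± 0.40, adjusted p = 0.00072). Serpina3h, annotated as a pseudogene, went from 2.34 to 1.15 FPKM in the early phase without a call (-0.97 ± 0.18) and was called lower over the whole process (-1.53 ± 0.19, adjusted p = 2.8e-06), and Serpina3f (0.910, 0.803 and 0.550 FPKM) was called in no comparison. Serpina3a, Serpina3b and Serpina3k were too low to be tested, with means of at most 0.0267, 0.0900 and 0.437 FPKM. Serpina3h, Serpina3m and Serpina3i share 21.9%, 19.1% and 15.9% of their 50-base stretches with other genes. Serpina3h shares mostly with Serpina3i (15.8%) and Serpina3i mostly with Serpina3h (9.82%). The calls of Serpina3g, Serpina3h and Serpina3i may therefore not be separate observations, which was not tested.

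**Figure D4:**
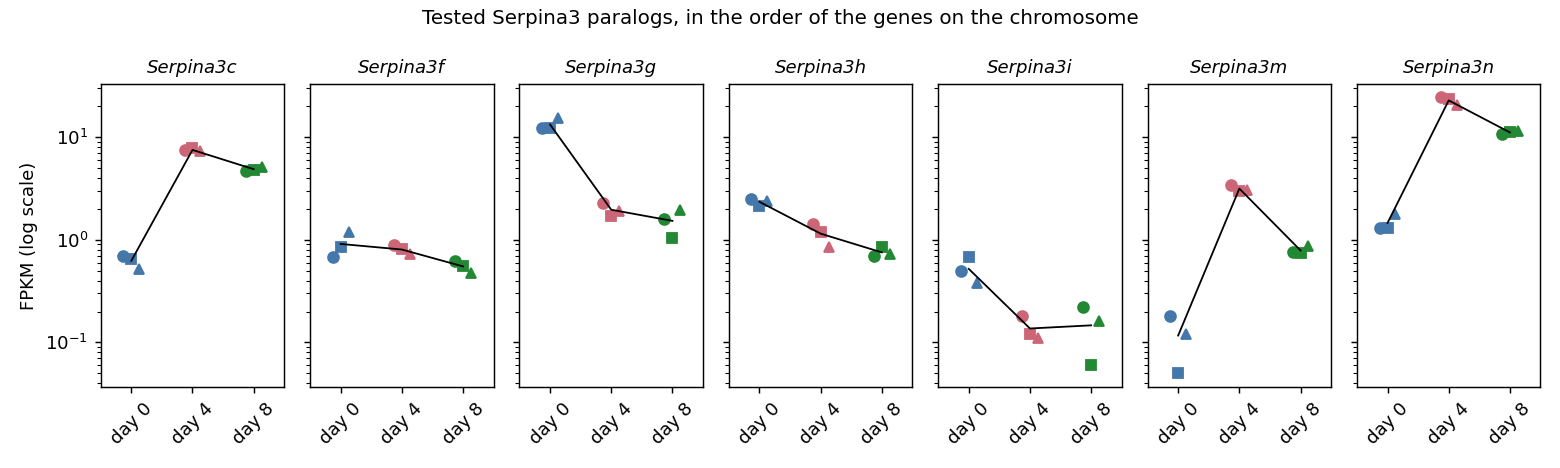
FPKM (logarithmic vertical axis) of the 7 tested Serpina3 genes on days 0, 4 and 8, with circles, squares and triangles for replicates 1, 2 and 3 and a line through the means. Serpina3c, Serpina3m and Serpina3n are lowest at day 0, whereas Serpina3g, Serpina3h and Serpina3i are highest there.

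Serpina3n is known as an acute-phase gene and Serpina3g as a gene inducible by interferon, so genes of both responses were followed by lists. Of the acute-phase genes, 8 of 9 were tested, and 7 were called higher and 0 lower in the early phase (median log2 fold change 6.23, against 0.02 over all tested genes), for example Hp (9.17 ± 0.19) and Lcn2 (6.27 ± 0.13), besides Saa3, Orm1, Orm2, C3 and Steap4. Of all tested genes, 9.77% were called higher and 7.98% lower in the early phase. Socs3 was tested but not called there (0.36 ± 0.13). Il6 was too low to be tested and had fewer expected counts at day 4 (3, 2 and 2) than at day 0 (10, 13 and 17). In the late phase 0 of the 8 were higher and 4 lower, beside 4.24% and 2.81% of all tested genes. The median was -1.0, and the 4 were Saa3, Hp, Orm2 and Socs3. Of the 10 interferon-induced genes, 0 were called higher and 9 lower in the early phase (median -3.52), for example Isg15 (-3.90 ± 0.16) and Irf7 (-3.14 ± 0.15), besides Ifit1, Ifit3, Gbp2, Gbp3, Ifi44, Oasl2 and Cxcl10, and Irf1 was the exception with -0.30 ± 0.06. In the late phase Ifit1 and Ifit3 rose, by 1.13 ± 0.22 and 1.54 ± 0.23, and Serpina3g was not called. These values stand beside those of Serpina3n and Serpina3g, and a link between the lists and the serpins was not tested.

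Markers of other cell types that express these serpins or proteases were summed for each day. The 10 macrophage markers summed to 9.62 ± 0.892 FPKM at day 0, 6.02 ± 0.546 at day 4 and 6.09 ± 0.531 at day 8, led by Cd14 with 4.48, 3.13 and 2.70 FPKM, and of the 5 tested Lyz2 and Aif1 were called lower in the early phase and Lyz2 higher in the late phase. This sum of 10 genes lay above the mean levels of the single genes Plau and Plaur on each of the 3 days. Cd14 by itself lay above Plau (3.66, 0.797 and 1.63 FPKM) on each day. It lay above Plaur (7.68, 2.99 and 4.19 FPKM) at day 4 alone. The defining genes Ptprc, Adgre1 and Itgam had means of at most 0.0167, 0.01 and 0.01 FPKM. The sums of the 10 endothelial markers were 1.58, 1.44 and 1.70 FPKM, led by Egfl7, with Tie1 and Cldn5 not listed, those of the 10 hepatocyte markers 0.190, 0.587 and 0.253 FPKM, and those of the 10 epithelial markers 0.433, 1.38 and 0.780 FPKM. No hepatocyte marker exceeded an average of 0.17 FPKM on any day (Apoa1 at day 4), and no epithelial marker 0.503 FPKM (Krt14 at day 4). Single markers were called in opposite directions, since Vwf was lower in the early phase (-2.95 ± 0.25), Pecam1 was higher in the late phase, Egfl7 and Pecam1 were higher over the whole process, and Krt18 was higher in the early phase. Of the preadipocyte markers, Dlk1 fell in the early phase from 828 to 181 FPKM (log2 fold change -2.13 ± 0.06) and rose in the late phase to 415 FPKM (1.24 ± 0.06), and Ly6a fell in the early phase (-1.90 ± 0.05). Fap, at a low level, rose in both phases, from 0.07 to 0.66 and 1.52 FPKM (3.17 ± 0.37 and 1.24 ± 0.21), and the other 7 of the 10 were not called in the early phase. The part of these cell types and states in the values of the 7 genes was not tested.

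Besides the 7 genes, 43 other serpins were listed and 16 of them tested. In the early phase 2 of the 16 were called higher and 5 lower (median log2 fold change -0.43), in the late phase 0 higher and 1 lower (-0.24), and over the whole process 2 higher and 5 lower (-0.56). Among all tested genes, 9.77% were called higher and 7.98% lower in the early phase. These shares were 4.24% and 2.81% in the late phase, and 10.3% and 7.70% over the whole process. The early count of 7 called became 12 with no filter, 3 with at least 10 counts in every sample or limma on log2(FPKM + 1), and 7 to 10 with 1 sample left out. The late count of 1 became 2 in 8 of the 9 fits with 1 sample left out (all but that without day 4 replicate 3) and with no filter, and 0 with at least 10 counts in every sample. The count of 7 over the whole process became 3 with that filter and 2 with limma on log2(FPKM + 1). With an adjusted p alone, 14 of the other serpins were called in the early phase and 9 in the late phase. By that rule 4676 of all 13154 tested genes were higher and 4430 lower in the early phase, and 2964 and 2989 in the late phase. Outside the Serpina3 cluster, the genes called lower in the early phase were Serpinb9b, from 5.35 to 1.14 FPKM (-2.16 ± 0.15, adjusted p = 1.6e-09), Serping1, the C1 inhibitor, from 1.34 to 0.250 FPKM (-2.32 ± 0.29, adjusted p = 2.5e-06), Serpini1, or neuroserpin, an inhibitor of tissue plasminogen activator, from 0.953 to 0.443 FPKM (-1.04 ± 0.22, adjusted p = 0.00063), and Serpinb2. Serpinb9, an inhibitor of granzyme B, and Serpinb9b moved apart in value, since Serpinb9 had 8.51 FPKM in preadipocytes and 13.3 FPKM at day 4, although its log2 fold change of 0.71 ± 0.07 was not called. The abundant Serpinh1 (594, 501 and 767 FPKM) and Serpinb6a (162, 120 and 98.0 FPKM), as well as Serpinb8 and Serpinb1a, were called in no comparison.

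Transcripts of plasminogen itself were barely detected. Plg had 0 expected counts in 7 of the 9 samples, and 2 and 1 expected counts in the other two, which is under the floor of 3 counts. The genes of its cell-surface docking sites were abundant by contrast, and none of the 4 tested was called. Plgrkt, the plasminogen receptor with a C-terminal lysine, had 24.9, 34.0 and 38.5 FPKM on days 0, 4 and 8, and its log2 fold change over the whole process was 0.74 ± 0.07. S100a10, which together with annexin A2 binds plasminogen and tissue plasminogen activator, had 382, 697 and 383 FPKM, with log2 fold changes of 0.94 ± 0.05 in the early and -0.82 ± 0.05 in the late phase, so that its day 4 value was high where those of Plau, Plat and Plaur were low.

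The partners of the urokinase receptor and the endocytic receptors that clear activator and serpin complexes were followed by a list of 13 genes. Of 12 tested, 1 was called higher and 2 lower in the early phase, where 9.77% and 7.98% of all tested genes were called, and their median log2 fold change was -0.22. Itgav, the integrin alpha V chain, fell from 33.9 to 11.6 FPKM (-1.48 ± 0.07, adjusted p = 2e-11), and Egfr rose from 4.49 to 15.1 FPKM (1.80 ± 0.07, adjusted p = 2.2e-12). Lrp2 fell as well (adjusted p = 3.8e-06), from 30, 33 and 31 expected counts to 0, 2 and 5. Itgb5, an integrin beta chain that pairs with alpha V, was not called in the early phase (-0.99 ± 0.05) and rose in the late phase from 30.2 to 61.8 FPKM (1.08 ± 0.05, adjusted p = 2.1e-10). Lrp1, the main clearance receptor for these complexes, had 148, 75.7 and 76.9 FPKM, with an early log2 fold change of -0.90 ± 0.09 (adjusted p = 1.2e-07) that was under the fold threshold. Vtn, the gene of vitronectin, which binds uPAR, was too low to be tested, with at most 0.257 FPKM on average.

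Among the substrates of urokinase and plasmin, 8 genes were tested, and 0 were called higher and 5 lower in the early phase, with a median log2 fold change of -1.81. In that phase 9.77% of all tested genes were called higher and 7.98% lower. Fn1, the matrix protein fibronectin, fell from 1145 to 191 FPKM (-2.53 ± 0.10, adjusted p = 2e-12). Hgf, a growth factor precursor that urokinase can cut, fell from 8.37 to 1.48 FPKM (-2.45 ± 0.10, adjusted p = 2.5e-12). The matrix metalloproteinases Mmp3 (-2.76 ± 0.11) and Mmp9 (-1.95 ± 0.10) and the neurotrophin Bdnf (-1.67 ± 0.07) were the other 3. In the late phase 4 of the 8 were called higher and 0 lower (median 0.95), beside 4.24% and 2.81% of all tested genes. The 4 were Mmp3 (1.97 ± 0.11), Mmp13 (1.92 ± 0.16), Mst1 (1.46 ± 0.34) and Mmp9 (1.12 ± 0.11). Mst1 was low, with 20, 10 and 4 expected counts at day 0, 14, 17 and 16 at day 4, and 38, 35 and 53 at day 8. Over the whole process Mst1 and Mmp13 were higher, and Hgf, Fn1 and Bdnf lower. Mmp2, the most abundant metalloproteinase of the list, had 409, 779 and 699 FPKM and was not called (0.99 ± 0.09 in the early phase).

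Of the 5 coagulation genes tested, Procr, the endothelial protein C receptor, was called lower in the early phase, from 10.9 to 4.09 FPKM (-1.35 ± 0.09, adjusted p = 2e-09), and over the whole process (-1.07 ± 0.09). No other gene of this list was called in any comparison, and thrombin (F2), a target of Serpine2, had at most 0.0133 FPKM on average. Over the 5 lists together, 30 of 44 genes were tested. In the early phase 1 was called higher and 9 lower (median -0.41), in the late phase 5 higher and 0 lower (0.19), and over the whole process 3 higher and 7 lower (-0.12). The shares of all tested genes called higher and lower were 9.77% and 7.98% in the early phase. They were 4.24% and 2.81% in the late phase, and 10.3% and 7.70% over the whole process.

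**Figure D5:**
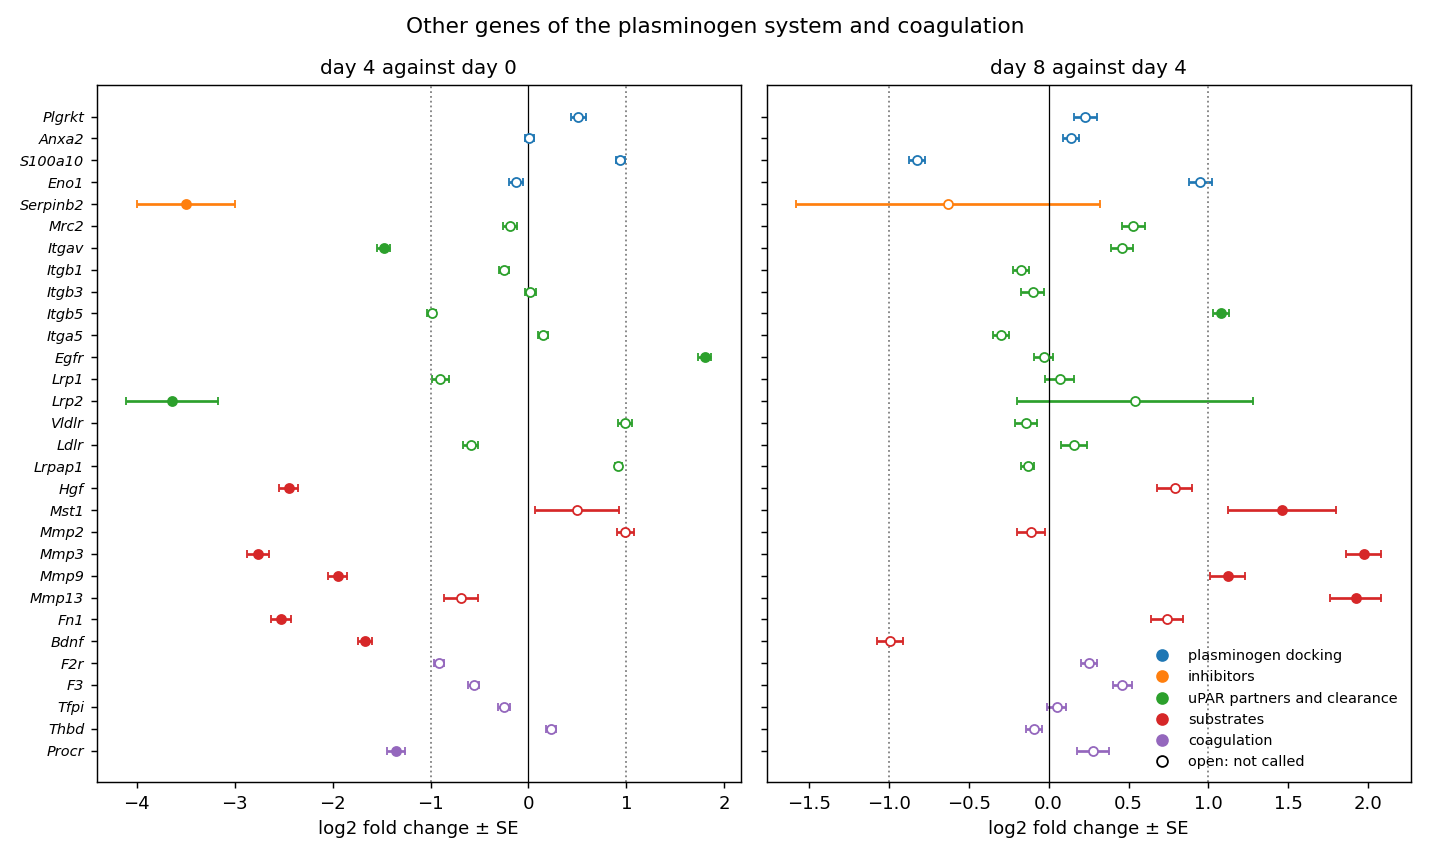
Log2 fold change ± SE (horizontal axis) of the 30 tested genes of the plasminogen and coagulation lists in the early phase (left) and the late phase (right), with filled symbols for called genes, open symbols for the rest and dotted lines at a fold change of 2. Filled symbols lie left of 0 for 9 genes and right of it for 1 gene in the early phase, and right of 0 for 5 genes in the late phase.

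The genes most similar to each member were sought among 11460 others whose average log2 CPM reached at least 1, by the root-mean-square difference of centred log2 CPM over the 9 samples. Serpina3n was closest to C3, the central complement protein (0.093), and to Cdo1 (0.138). C3 had 43.6, 616 and 299 FPKM on days 0, 4 and 8. Serpine2 was closest to Pdpn (0.078) and Irx1 (0.084), Serpinf1 to Enc1 (0.071) and Sema3c (0.072), and Plat to Cnn3 (0.057) and Gab1 (0.059). For Plaur they were BC055324 (0.080) and Mastl (0.094), and for Plau Foxl1 (0.195) and Phlda1 (0.199). Serpina3g had the least similar nearest genes, Adgrg6 (0.263) and Oas1b (0.282). These distances describe 9 samples of 3 days, in which many genes share one of a few shapes, and a small distance is easier to reach for a gene that varies little, such as Plat.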

How the data were processed

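The deposited expected counts are RSEM estimates per gene, not normalized, and 29.8% of them are fractional (over 0.005 from a whole number). FPKM, also deposited, had been divided by transcript length and depth, and the files list only genes with FPKM above 0. The authors removed poor reads, mapped the rest with HISAT/Bowtie2 and quantified with RSEM. The submitters' processing notes name CASAVA 1.4 and Bowtie2. The genome build is not given in the sources used here. The deposited gene length was used for 1 alternative.

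Samples were grouped by the day in their titles. Expected counts were rounded, filtered with filterByExpr, scaled with TMM factors (0.954 to 1.049) and fitted in R 4.3.3 with edgeR 4.0.16 (glmQLFit, glmQLFTest), with all 9 samples in one model, 1 coefficient per day and no covariate. The SE is the log2 fold change divided by the square root of F. Levels are means ± SD of the deposited FPKM, and floors cover counting error only. The steps were tested on simulated data. All 7 members are named. Other serpins are named with a mean of at least 1 FPKM on any day or as Serpina3 genes, pathway genes when called in a comparison, and Plg, Vtn, Lrp1, Plgrkt and the inhibitors always, and some genes covered by these rules are not reported here. Further genes were named after their values were seen. Members, lists and rules were chosen with earlier results of these data known. Replicate noise exceeded counting noise for every pair, so no samples were merged. Alternatives were RLE factors, library size alone, other count filters, DESeq2 1.42.0, edgeR's exact test, limma 3.58.1 on log2(FPKM + 1) and log2(FPKM + 0.1), separate models, a replicate block, adjusted p alone and leaving out each sample. Summing the Serpina3 genes and the count of shared 50-base stretches (GENCODE transcripts) were added after seeing the data.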

Additional observations from a re-analysis of the deposited data

How the results depend on the processing

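Of 420 fold changes of the 7 genes under the other settings, 386 kept their direction and call, 14 lost the call, 16 gained it and 4 turned their sign. The sign turned for Plat over the whole process, with -0.09 for library size alone and for limma with either pseudocount, and -0.03 to 0.09 with 1 sample left out (-0.03 without day 8 replicate 1), none of them called. Library size alone moved the median of all genes over the whole process from -0.018 to -0.129. Genes called higher and lower with limma on log2(FPKM + 1) numbered 708 and 565 in the early phase, 224 and 136 in the late phase, and 753 and 528 over the whole process. With an adjusted p alone they numbered 4676 and 4430, 2964 and 2989, and 4583 and 4756. With at least 10 counts in every sample, 831 were higher in the early phase, and 310 higher and 173 lower in the late phase, from fewer genes tested.

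Members called higher in the late phase numbered 1 with library size alone, the exact test or separate models, 0 with either limma fit, 5 with an adjusted p alone, and 0 to 2 with 1 sample left out (0 without day 4 replicate 3, 1 without day 8 replicate 2 or 3). Members called lower there numbered 1 with library size alone, limma on log2(FPKM + 0.1) or an adjusted p alone, and 0 to 1 with 1 sample left out (1 without day 4 replicate 3 or day 8 replicate 3). Over the whole process an adjusted p alone gave 2 higher and 4 lower members, and leaving out 1 sample gave 1 to 2 lower (1 without day 0 replicate 3 or day 8 replicate 2). The early counts of 1 higher and 4 lower held in every fit that left out 1 sample. Serpine2 passed the fold threshold over the whole process with limma (-1.06 and -1.07).

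Samples with the same replicate number deviated together little (mean correlation 0.031, from -0.035 to 0.075). For different numbers the mean was -0.015 (from -0.100 to 0.063). These small averages cannot tell whether samples with the same number shared a culture or a batch. The replicate block gave 1287 higher and 1053 lower genes in the early phase, 556 and 367 in the late phase and 1360 and 1010 over the whole process, and changed no call of the 7 genes. Recomputed from counts per length, 5 of 21 levels moved by more than the SD, Serpine2 and Serpinf1 on days 0 and 8 and Plat on day 0.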
